A study of Mus musculus with 4 samples.

Results

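The lysosomal genes described here encode cathepsins, other lysosomal enzymes, proteins of the lysosomal membrane and a regulator of lysosomal genes. They were chosen by symbol as a list of 31 genes, and each gene was represented by its probe with the highest mean intensity over the 4 arrays. A gene was kept where that probe had a detection p under 0.01, that is, a signal above the array's background, on at least 1 array. Of the 31 genes, 28 were kept, out of 16593 genes with a named probe. The probes of 25 genes were detected on all 4 arrays, and those of Ctsa, Ctss and Tfeb on 2. The probe of Ctso, a cysteine cathepsin, was detected on no array, with a lowest detection p of 0.0646. Npc1 and Cd68 had no probe named in the annotation used here and are not analysed here.

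Lysosomes are acidic compartments in which hydrolases break down proteins, glycans and lipids delivered by endocytosis and autophagy. Most of the soluble enzymes receive a mannose 6-phosphate tag in the Golgi and are carried to the lysosome by mannose 6-phosphate receptors, while a proton pump keeps the lumen acidic and heavily glycosylated proteins line the membrane. In the epidermis, cathepsins and lysosomal glycosidases are known for processing proteins and glycolipids as keratinocytes mature, and the factor Tfeb binds E-box sequences near the start sites of many lysosomal genes.

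The arrays compare single samples of primary keratinocytes from newborn mice of the 129 background, all carrying a Pou5f1::GFP reporter transgene and all transduced with reprogramming factors that the labels do not name. The 4 groups, with 1 array each, were cells without DAPT and cells with DAPT, harvested on day 4 or on day 7. DAPT, given at 2.5 uM, blocks gamma-secretase, the enzyme that cuts Notch receptors inside the membrane. The questions are how lysosomal genes stood with and without DAPT, and on day 7 against day 4. As no group has a replicate, pairwise differences are given without an error or a p-value.

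The labelled cell type was checked against its markers, and 10 of 10 basal keratinocyte markers, among them Krt5 and Trp63, were detected on all 4 arrays. Fibroblast markers were also detected, 11 of 11 on at least 1 array, so this check does not separate keratinocytes from other cells. Mean intensity on the day 4 arrays was 472 without and 365 with DAPT. On the day 7 arrays it was 323 without and 416 with DAPT, and between 12281 and 14145 of 25697 probes were detected. Values below are normalized intensities on the log2 scale, and differences between arrays are log2 differences, so that a difference of 1 is 2-fold. Detected probes of the same gene differed with an SD of 0.53 for DAPT on day 4, 0.37 for DAPT on day 7, 0.62 for day 7 against day 4 without DAPT and 0.32 with DAPT. This SD is a spread between probes, which can read different transcripts, and not a spread between replicates. The number of arrays limits the precision of every value.

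Promoters are shown for the members that differed by at least 2-fold between arrays and hold the E-box CACGTG, which are Ctsa and Lamp1. Each runs from 250 bases before to 50 bases after a RefSeq start site of build GRCm38.p6, is read on the plus strand, and has the E-box in capitals. Of the 2 start sites listed for Ctsa, the promoter at chr2:164833523-164833822 is shown because the other holds no match. The Lamp1 promoter lies at chr8:13158911-13159210.
Ctsa: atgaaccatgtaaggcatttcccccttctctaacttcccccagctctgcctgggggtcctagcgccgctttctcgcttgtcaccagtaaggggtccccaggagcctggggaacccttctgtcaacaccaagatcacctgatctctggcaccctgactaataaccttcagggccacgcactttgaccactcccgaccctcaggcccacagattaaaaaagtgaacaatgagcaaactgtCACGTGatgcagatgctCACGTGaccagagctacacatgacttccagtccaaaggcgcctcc
Lamp1: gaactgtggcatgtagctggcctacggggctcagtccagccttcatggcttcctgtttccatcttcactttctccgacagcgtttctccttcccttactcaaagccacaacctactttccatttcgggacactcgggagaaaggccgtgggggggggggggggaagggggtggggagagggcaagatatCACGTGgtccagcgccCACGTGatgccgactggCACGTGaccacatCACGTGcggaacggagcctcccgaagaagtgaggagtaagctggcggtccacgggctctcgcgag
In Lamp1, 4 E-boxes begin at -61, -45, -28 and -15 from the start site, and in Ctsa a pair begins at -12 and +6. The motif CACGTG, which reads the same on both strands, was found in promoters of 7 of the 26 listed genes with a promoter in the table (26.9%), against 8.09% of 27025 genes and 11.5% of the 8394 genes with a promoter that were detected here. The 7 genes were Ctsl, Lgmn, Ctsa, Ctsd, Gaa, Glb1 and Lamp1. The longer TCACGTG, searched on both strands and overlapping CACGTG, was found in 6 of 26 (23.1%) against 4.29% of genes and 6.81% of detected genes. TCACGTGA was found in 2 of 26, Ctsa and Ctsd, against 1.12% and 2.17%. Lipa, which also passed 2-fold, had no CACGTG in its window. These matches describe letters and not binding.

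Tfeb itself, the E-box binding regulator, stood at 5.05 without and 5.27 with DAPT on day 4, and at 4.57 without and 4.82 with DAPT on day 7. It was detected on both day 4 arrays and on neither day 7 array. As normalized here, day 7 was at least 1.39-fold lower without DAPT and at least 1.36-fold lower with DAPT. These folds are the observed log2 differences of -0.48 and -0.44, set against the undetected probe's own signal. They are not bounds across settings, since both differences were -0.22 with an offset of 50. The difference with DAPT on day 4 was 0.22. The 7 genes with CACGTG had medians of 0.33 and 0.36 for day 7 against day 4 without and with DAPT, and the 17 others with a promoter 0.50 and 0.23.

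In 24 of 28 members the range over the 4 arrays was under 1 on the log2 scale, as in 79.3% of all 10359 detected genes, and the 4 others were Ctsa, Lipa, Npc2 and Lamp1. The highest of the 4 values fell on the no DAPT day 7 array in 16 of 28 members, against 29.9% of all detected genes, and the lowest fell on the no DAPT day 4 array in 10, against 37.9%.

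**Figure D1:**
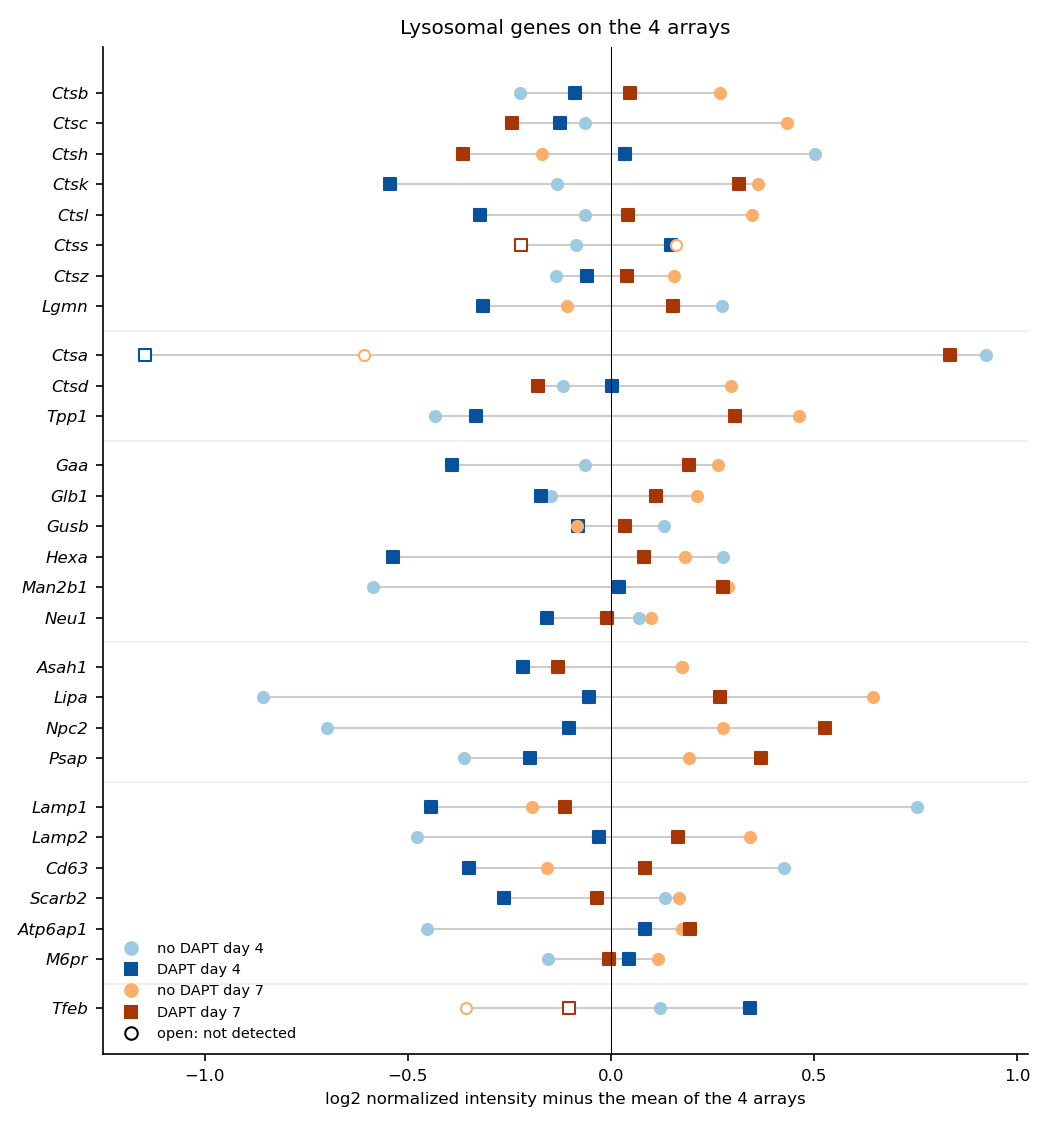
Normalized intensity of 28 lysosomal genes on the 4 arrays, each gene centred on its own mean (horizontal axis, log2), grouped by role from top to bottom as cysteine cathepsins and legumain, other peptidases, glycosidases, lipid handling, membrane and sorting, and Tfeb. Points are single arrays, circles without and squares with DAPT, light and dark blue on day 4 and orange and brown on day 7, and open symbols mark probes that were not detected. Lipa and Npc2 have their lowest point on the no DAPT day 4 array, and Lamp1 has its highest point there.

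On day 7 against day 4, Lipa, Npc2 and Psap, which handle lipids, and the peptidase Tpp1 stood higher both without and with DAPT, and none of them passed the additive limma test over the 4 arrays. Over the 28 members the median difference was 0.31 without DAPT, against 0.09 for all 9879 genes tested, and 0.24 with DAPT, against -0.03 for 9860 genes. Members above 0 numbered 19 of 28 without DAPT (56.1% of all genes) and 22 of 28 with DAPT (47.1% of all genes). With the arrays scaled to equal medians instead of equal quantiles, these became 16 of 28 and 24 of 28, with medians of 0.11 and 0.36, while the medians of all genes became -0.14 and 0.11. Relative to the median of all genes, the members' median lay between 0.22 and 0.28 without DAPT and between 0.24 and 0.32 with DAPT in every setting tried. In both comparisons together, 15 of 28 members were above 0 and 2, Ctsh and Tfeb, were below, against 27.7% of all genes above.

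At 2-fold, without DAPT 2 of 28 members differed, Lipa higher and Ctsa lower, beside 14.1% of all genes, 7.49% higher and 6.58% lower. With DAPT 1 of 28 differed, Ctsa higher, beside 5.12% of all genes, 3.07% higher and 2.05% lower. At 1.5-fold, 6 members were higher and 4 lower without DAPT, beside 22.0% and 15.8% of all genes, and 5 were higher and 0 lower with DAPT, beside 10.3% and 9.42%, or 19.7% in both directions. Tpp1 and Npc2 were at least 1.5-fold higher in both, as were 4.23% of all genes.

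The additive limma test, with day and DAPT as terms over all 4 arrays and Benjamini-Hochberg adjustment over 10359 genes, called 0 of 28 members for day, beside 1.83% of all genes, of which 1.16% rose and 0.676% fell. At an unadjusted p under 0.05 it gave 3 members, beside 9.41% of all genes. In that limma fit Lipa differed by 0.91 (SE 0.38, adjusted p = 0.318), Npc2 by 0.80 (SE 0.38, adjusted p = 0.461) and Tpp1 by 0.77 (SE 0.38, adjusted p = 0.508). Each of these was higher on day 7 in 2 of 2 comparisons, and none held after adjustment. The test has 1 residual degree of freedom, which is the difference of the DAPT effects between the days. It uses the same SD of 0.384 for every gene, and the cultures are not stated to be independent.

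**Figure D2:**
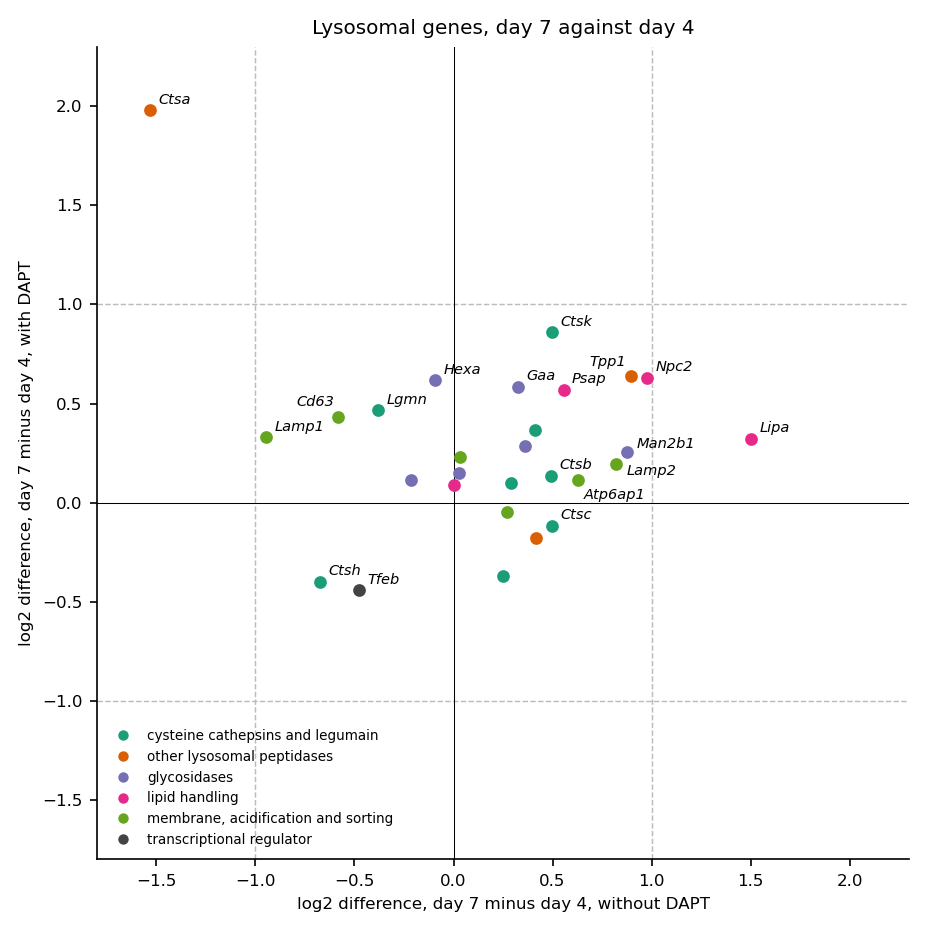
Log2 difference of day 7 minus day 4 for each of 28 lysosomal genes, without DAPT (horizontal axis) and with DAPT (vertical axis), coloured by role, with dashed lines at 2-fold. Most genes lie in the upper right quadrant, Lipa lies farthest to the right at 2.83-fold, and Ctsa lies farthest to the upper left, past the 2-fold line on both axes.

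Of the lipid handling proteins, 4 were detected. Lipa, the acid lipase that cleaves cholesteryl esters and triglycerides in the lysosome, stood at 7.63 without and 8.44 with DAPT on day 4, and at 9.14 without and 8.76 with DAPT on day 7. Both day 7 arrays lay above both day 4 arrays, and day 7 was 2.83-fold higher without DAPT, with a log2 difference of 0.32 with DAPT.

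Npc2, a soluble protein that hands cholesterol to the lysosomal membrane, stood at 11.48 and 12.07 on day 4 and at 12.45 and 12.70 on day 7, without and with DAPT. Its day 7 values were above its day 4 values by 0.98 without DAPT, or 1.97-fold, and by 0.63 with DAPT. Psap, the precursor of the saposins that help enzymes reach sphingolipids, stood at 12.04 and 12.21 on day 4 and at 12.60 and 12.78 on day 7, and its day differences of 0.56 and 0.57 were nearly equal. Asah1, the acid ceramidase, differed by 0.00 and 0.09, and its other detected probe by -1.05 and 0.89. The median over these 4 genes was 0.77 without DAPT and 0.45 with DAPT, and 0.77 and 0.56 with median scaling.

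Among peptidases that are not cysteine cathepsins, Tpp1, which removes tripeptides from the ends of proteins, stood at 8.78 and 8.88 on day 4 and at 9.68 and 9.52 on day 7, without and with DAPT. Its day 7 arrays were both above its day 4 arrays, by 0.90 without and 0.64 with DAPT, or 1.86-fold and 1.56-fold. Ctsd, the main aspartic protease of lysosomes, differed by 0.42 without DAPT and by -0.18 with DAPT.

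The cysteine cathepsins and legumain had a median day difference of 0.35 without DAPT and 0.12 with DAPT over 8 detected genes, or 0.15 and 0.20 under median scaling. In either comparison 0 of the 8 reached 2-fold. Ctsk, a collagen-degrading cathepsin best known from bone, stood at 11.75 and 11.34 on day 4 and at 12.24 and 12.20 on day 7, without and with DAPT. It was higher on day 7 by 0.50 without and 0.86 with DAPT, the latter 1.81-fold. Ctsh, an aminopeptidase among the cathepsins, went the other way, with 11.27 and 10.80 on day 4 and 10.60 and 10.40 on day 7, differences of -0.67 and -0.40.

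Ctsb, which also trims peptides from their carboxyl ends, differed by 0.49 and 0.14, Ctsl, a broad endopeptidase of keratinocytes and other cells, by 0.41 and 0.36, and Ctsz, a carboxypeptidase, by 0.29 and 0.10. Ctsc, which activates serine proteases of granules, differed by 0.50 without and -0.12 with DAPT, and Lgmn, which cuts after asparagine, by -0.38 and 0.47. Ctss, a cathepsin of antigen-presenting cells, stood at 4.92 and 5.15 on day 4 and at 5.16 and 4.78 on day 7, without and with DAPT, and was detected on the day 4 arrays alone. Its day differences had opposite signs, 0.25 without DAPT and at least 1.29-fold lower with DAPT.

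All 6 glycosidases were above 0 with DAPT, with a median of 0.27, and 4 of 6 without DAPT, with a median of 0.18 that became -0.08 with median scaling. Man2b1, an alpha-mannosidase, stood at 9.01 and 9.62 on day 4 and at 9.88 and 9.87 on day 7, and was higher on day 7 by 0.87 without and 0.26 with DAPT. Its no DAPT day 4 array was the lowest of the 4. Hexa, the alpha subunit of the hexosaminidase that degrades ganglioside GM2, stood at 10.68 and 9.86 on day 4 and at 10.58 and 10.48 on day 7, so that its DAPT day 4 array was the lowest and the day differences were -0.09 and 0.62. Gaa, which breaks down glycogen, differed by 0.33 and 0.58, Glb1, the beta-galactosidase, by 0.36 and 0.28, Gusb, the beta-glucuronidase, by -0.21 and 0.11, and Neu1, a sialidase, by 0.03 and 0.15. The other detected Gusb probes differed more, by -0.84 and -1.75 without DAPT and by 0.71 and 0.57 with DAPT.

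Among membrane and sorting proteins the 2 abundant glycoproteins of the lysosomal membrane stood on opposite sides without DAPT at the probes used. Lamp1 stood at 13.59 and 12.40 on day 4 and at 12.65 and 12.73 on day 7, without and with DAPT, and its day difference was -0.95 without and 0.33 with DAPT. Lamp2 stood at 12.74 and 13.19 on day 4 and at 13.56 and 13.38 on day 7, with differences of 0.82 and 0.19. At these probes the no DAPT day 4 array was the highest of the 4 in Lamp1 and the lowest in Lamp2. The other Lamp2 probes differed by 0.93, 0.04 and -0.44 without DAPT, and the last of them was highest on the no DAPT day 4 array.

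Cd63, a tetraspanin of late endosomes and lysosomes, stood at 13.22 and 12.44 on day 4 and at 12.63 and 12.88 on day 7, with differences of -0.59 and 0.43. Its other detected probes differed by -0.66 and 0.87 and, in the opposite direction, by 0.92 and -0.06. Atp6ap1, an accessory subunit of the proton pump, differed by 0.63 and 0.11, M6pr, the cation-dependent mannose 6-phosphate receptor, by 0.27 and -0.05, against -1.69 and -0.16 at its other probe, and Scarb2, the membrane protein that carries beta-glucocerebrosidase to the lysosome, by 0.03 and 0.23. The median over these 6 genes was 0.15 without DAPT, or -0.04 with the mean over each gene's probes, and 0.21 with DAPT.

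Markers of cell types moved along the same day comparisons. The 10 basal keratinocyte markers had day medians of -0.91 without and -0.87 with DAPT, and Krt5 and Col17a1 fell in the additive limma test, with a smallest adjusted p of 3.43e-08. Their summed normalized intensity was 30335 and 34246 on day 4 and 16611 and 19320 on day 7, without and with DAPT. The 11 fibroblast markers on the array, each detected on at least 1 array, had day medians of 0.73 and 0.96, and their summed normalized intensity was 17341 and 17058 on day 4 and 30214 and 33332 on day 7, without and with DAPT. Col3a1 and Prelp rose in that test. Of 15 macrophage and myeloid markers on the array, 5 were detected, with day medians of 0.86 and 0.90 and a summed normalized intensity of 344 and 500.3 on day 4 and 885 and 991 on day 7. Lyz1 differed by 2.02 and 1.34 and rose in that test. The defining genes Ptprc, Adgre1, Itgam, Mrc1, Cd163, C1qa, C1qb and C1qc were among the 10 not detected on any array. Of 7 Langerhans and dendritic cell markers, H2-Ab1 alone was detected. Of 9 melanocyte markers on the array, 8 were detected in the day comparison without DAPT and 6 with DAPT, with medians of 0.72 and -0.34. With detection required on every array compared, the latter was 0.22. Ednrb differed by 3.07 without and 1.98 with DAPT, and rose in that test. With DAPT 3 of 6 were above 0, while Tyrp1 differed by -1.56 and Mlana by -0.90, and Dct was at least 2.50-fold lower. The 9 detected differentiated keratinocyte markers had day medians of -0.36 and -0.37, and moved in both directions. Without and with DAPT, Rptn differed by 2.31 and 1.12, Klk7 by 1.64 and 1.30, and Ivl by -2.17 and -1.04. In that test Rptn and Klk7 rose and Ivl fell. The part of these cell types in the differences of the lysosomal genes was not tested. In RNA from a whole culture, fewer cells of a type and less RNA per cell cannot be told apart.

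With DAPT on day 4, the members lay on both sides of 0, and Ctsa and Lamp1 were the 2 that passed 2-fold. The median was -0.04 over 28 members against 0.08 over 9913 genes, and 13 of 28 members were above 0 against 55.8% of all genes. With median scaling these became a median of -0.19 against -0.10, and 10 of 28 above 0. At 2-fold 0 members were higher and 2 lower, beside 7.41% of all genes, 3.81% higher and 3.6% lower, and at 1.5-fold 3 were higher and 5 lower, beside 27.7%.

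With DAPT on day 7, Ctsa alone passed 2-fold, in the direction opposite to day 4. The median was -0.10 over the 26 members tested against -0.05 over 9705 genes, and 8 of 26 were above 0 against 44.1% of all genes, but with median scaling the median was 0.09 against 0.17 and 18 of 26 were above 0. At 2-fold 1 member, Ctsa, was higher and 0 were lower, beside 2.21% of all genes, 1.71% higher and 0.495% lower. At 1.5-fold Ctsa was higher and Ctsc lower, beside 13.2% of all genes, 7.41% higher and 5.76% lower. The additive limma test called 0 of 28 members for DAPT, beside 0.116% of all genes, of which 0.106% rose and 0.00965% fell, and 0 members had an unadjusted p under 0.05, beside 1.96% of all genes. Marker medians with DAPT on day 4 and day 7 were 0.28 and 0.29 for basal keratinocytes, 1.23 and 1.27 for differentiated keratinocytes, 0.02 and 0.09 for fibroblasts, 0.12 and 0.15 for myeloid cells and 0.18 and -1.04 for melanocytes. With median scaling the day 4 medians of fibroblasts, myeloid cells and melanocytes were -0.03, -0.02 and -0.12.

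**Figure D3:**
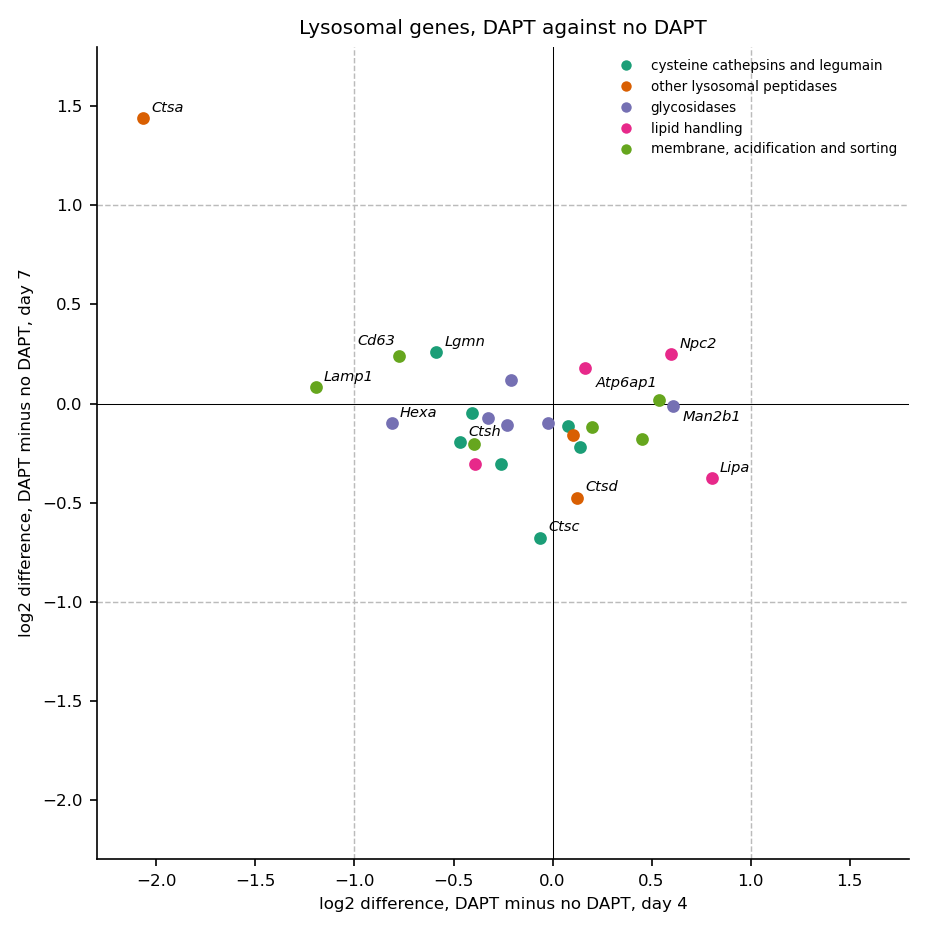
Log2 difference of DAPT minus no DAPT for the 26 lysosomal genes detected on each day, on day 4 (horizontal axis) and day 7 (vertical axis), coloured by role, with dashed lines at 2-fold. Ctsa lies at -2.07 on day 4 and 1.44 on day 7, Lamp1 at -1.20 and 0.08, and the other genes stay inside the 2-fold lines.

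Signs with DAPT were mixed over the 26 genes detected on each day. On both days 3 members were above 0, 10 were below 0 on both days, 8 were above on day 4 and below on day 7, and 5 were below on day 4 and above on day 7. Of all genes, 55.8% were above 0 on day 4 and 44.1% on day 7. The share of all genes with each pattern is not given here, so these counts have no background. Npc2, at 0.60 and 0.25, and Psap, at 0.16 and 0.18, were above 0 on both days. Ctsh, at -0.47 and -0.20, Ctsl, at -0.26 and -0.31, Asah1, at -0.39 and -0.31, and Scarb2, at -0.40 and -0.20, were below 0 on both. None of these differences reached 2-fold.

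Ctsa, the protective protein that stabilises beta-galactosidase and neuraminidase and is a serine carboxypeptidase, was the most variable member. Its probe stood at 6.55 without and 4.48 with DAPT on day 4, and at 5.02 without and 6.46 with DAPT on day 7. It was detected on the no DAPT day 4 array and the DAPT day 7 array and on neither of the others. With DAPT it was at least 3.72-fold lower on day 4 and at least 2.72-fold higher on day 7, and day 7 was at least 2.89-fold lower than day 4 without DAPT and at least 3.50-fold higher with DAPT. A pair of other detected Ctsa probes differed by -0.19 and 0.09 with DAPT on day 4 and by -0.24 and 0.48 on day 7. Averaged over all its probes, Ctsa differed with DAPT by -0.59 on day 4 and 0.41 on day 7, and between the days by -0.37 without and 0.62 with DAPT.

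The arrays on which the Ctsa probe was detected were the 2 with the higher mean intensity. Both of these arrays lay above both others in 5 of 28 members, Lgmn, Ctsa, Gusb, Lamp1 and Cd63, against 15.2% of all genes, and below both others in 3 members, Ctss, Ctsd and M6pr, against 23.3%. The part of array brightness in the values of these genes was not tested. Only 0.0386% of all genes had a larger contrast between the brighter and the dimmer arrays than the Ctsa probe. This count was chosen after the values were seen.

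Lamp1 was lower with DAPT on day 4 by 1.20 on the log2 scale, or 2.29-fold, with 0.08 on day 7, and its day 4 value was -0.98 with median scaling. It has a single probe on the array. Hexa differed by -0.81 on day 4 and -0.10 on day 7, Cd63 by -0.78 and 0.24, and Lgmn by -0.59 and 0.26. Higher with DAPT on day 4 were Lipa by 0.80, Man2b1 by 0.61, Npc2 by 0.60, Atp6ap1 by 0.54 and Lamp2 by 0.45, and on day 7 these stood at -0.38, -0.01, 0.25, 0.02 and -0.18. The comparison of DAPT on day 4 shares its no DAPT array with the day comparison without DAPT, so that a value particular to that array enters both.

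Ctsc was the lowest member with DAPT on day 7. It stood at 9.29 and 9.22 on day 4 and at 9.78 and 9.11 on day 7, without and with DAPT, a difference of -0.06 on day 4 and -0.68, or 1.60-fold lower, on day 7. Its 3 probes were between -0.68 and -0.55 on day 7. For the remaining members the differences are those of the probe used. On day 4 and day 7 these were 0.14 and -0.22 for Ctsb, -0.41 and -0.05 for Ctsk, 0.08 and -0.12 for Ctsz, and 0.12 and -0.48 for Ctsd. They were 0.10 and -0.16 for Tpp1, -0.33 and -0.07 for Gaa, -0.02 and -0.10 for Glb1, and -0.21 and 0.12 for Gusb. For Neu1 they were -0.23 and -0.11, and for M6pr 0.20 and -0.12. Ctss differed by 0.24 on day 4 and was not detected on either day 7 array.

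Several members had probes that disagreed. Of the 10 members with more than 1 probe, 8 had more than 1 detected probe, and in 6 of these the signs were opposite in at least 1 comparison. The share over all genes with several detected probes is not given here. Ctsz counts through -0.12 and 0.09 with DAPT on day 7 alone, inside the SD between probes of 0.37. The Lamp2 probes parted by the transcript they were designed on in the comparisons that share the no DAPT day 4 array. The pair designed on NM_010685 differed by 0.82 and 0.93 for day 7 against day 4 without DAPT and the pair designed on NM_001017959 by 0.04 and -0.44. The same pairs differed by 0.45 and 0.57 against -0.13 and -0.47 with DAPT on day 4. With DAPT on day 7 the pairs overlapped, at -0.18 and -0.27 against -0.22 and -0.0028. For day 7 against day 4 with DAPT they lay close, at 0.19 and 0.09 against -0.05 and 0.02. For Cd63 the DAPT differences on day 4 were -0.78, -0.59 and 0.71, for Gusb -0.21, -1.10 and -1.39, for Asah1 -0.39 and -1.12, and for M6pr 0.20 and -1.49. With DAPT on day 7 the Gusb probes differed by 0.12, 0.45 and 0.93.

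**Figure D4:**
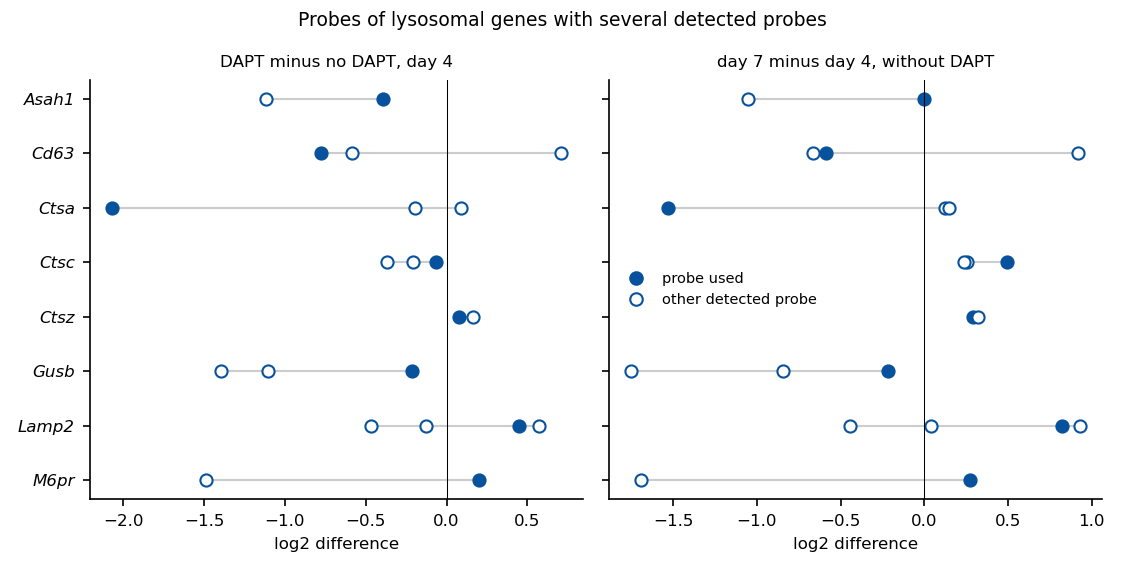
Log2 differences of every detected probe of the 8 lysosomal genes with more than 1 detected probe, for DAPT minus no DAPT on day 4 (left) and day 7 minus day 4 without DAPT (right). Filled points are the probes used and open points the others, and the Ctsa probe used lies far below its other probes in both panels.

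Other genes of the lysosome were read from 7 lists. Of 40 other lysosomal hydrolases and cofactors, 27 were detected without DAPT and 26 with DAPT in the day comparisons, with medians of 0.49 and 0.41, and with median scaling 0.08 and 0.57. At 2-fold 6 were higher and 0 lower without DAPT, beside 7.49% and 6.58% of all genes, and 1 was higher and 0 lower with DAPT, beside 3.07% and 2.05%. Sumf1, which activates sulfatases, differed by 1.48 without DAPT, Naglu, which degrades heparan sulfate, by 1.24, and Ctsf, a further cysteine cathepsin, by 1.36 without and 1.15 with DAPT. Aga, which cleaves the glycan from asparagine, was at least 2.35-fold higher. In the additive limma test 0 of 27 passed for day, with a smallest adjusted p of 0.0544 and 5 at an unadjusted p under 0.05, beside 9.41% of all genes.

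The lists of 22 other membrane proteins, 19 proton pump subunits, 23 sorting genes and 23 autophagy genes detected without DAPT had day medians of 0.20, -0.11, 0.16 and 0.22, and these were -0.12, -0.17, -0.29 and -0.14 with median scaling. With DAPT they were 0.13, 0.13, -0.0041 and 0.04, and with median scaling 0.27, 0.19, 0.20 and 0.22. Of the genes related to Tfeb and to nutrient sensing at the lysosome, 16 were detected without and 17 with DAPT, with day medians of 0.10 and 0.12, of which the first was -0.10 with median scaling. Tfec, a relative of Tfeb, differed by 1.23 and 0.69. In the additive limma test 0 genes of these 5 lists passed for day or for DAPT, and 0, 0, 0, 1 and 1 had an unadjusted p under 0.05 for day, in the order membrane, pump, sorting, nutrient sensing and autophagy.

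Of the cystatins, which inhibit cysteine cathepsins, Stfa1 was higher with DAPT by 3.47 on day 4 and 2.42 on day 7, and rose in the additive limma test (adjusted p = 1.77e-10). Stfa2 and Stfa3, near-identical relatives for which cross-hybridisation cannot be told apart, were at least 2.45-fold higher and at least 2.34-fold higher respectively on day 4. Csta1 differed by 0.31 on day 4 and -0.32 on day 7, and on day 7 the widely expressed Cst3 and Cstb differed by -0.04 and 0.05. Beside this, 7 of 9 detected differentiated keratinocyte markers were above 0 with DAPT on each day, and 5 of the 9 rose in that test. Ivl went the other way on day 4, by -1.89. The part of these cells in the cystatin values was not tested.

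Among other listed genes with DAPT on day 4, Laptm4a, a small lysosomal membrane protein, differed by -1.66, Ppt1, which removes palmitate from proteins, by -1.48, Ap1s1, a subunit of the sorting adaptor AP-1, by -1.34, and Prcp, a carboxypeptidase, by 1.20. Ap1s1 had the opposite sign with DAPT on day 7, at 0.84. Between the days it differed by -1.64 without and 0.55 with DAPT, and Laptm4a by -1.09 and 0.77. The medians of the 7 lists with DAPT lay between -0.12 and 0.89 on day 4 and between -0.11 and 0.13 on day 7. With median scaling these ranges were -0.28 to 1.03 and 0.02 to 0.26. The day 4 median of the cystatins was 0.89, and 0.17 with detection required on every array compared, since Stfa2 and Stfa3 were detected on the DAPT array of day 4 and not on the other.

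**Figure D5:**
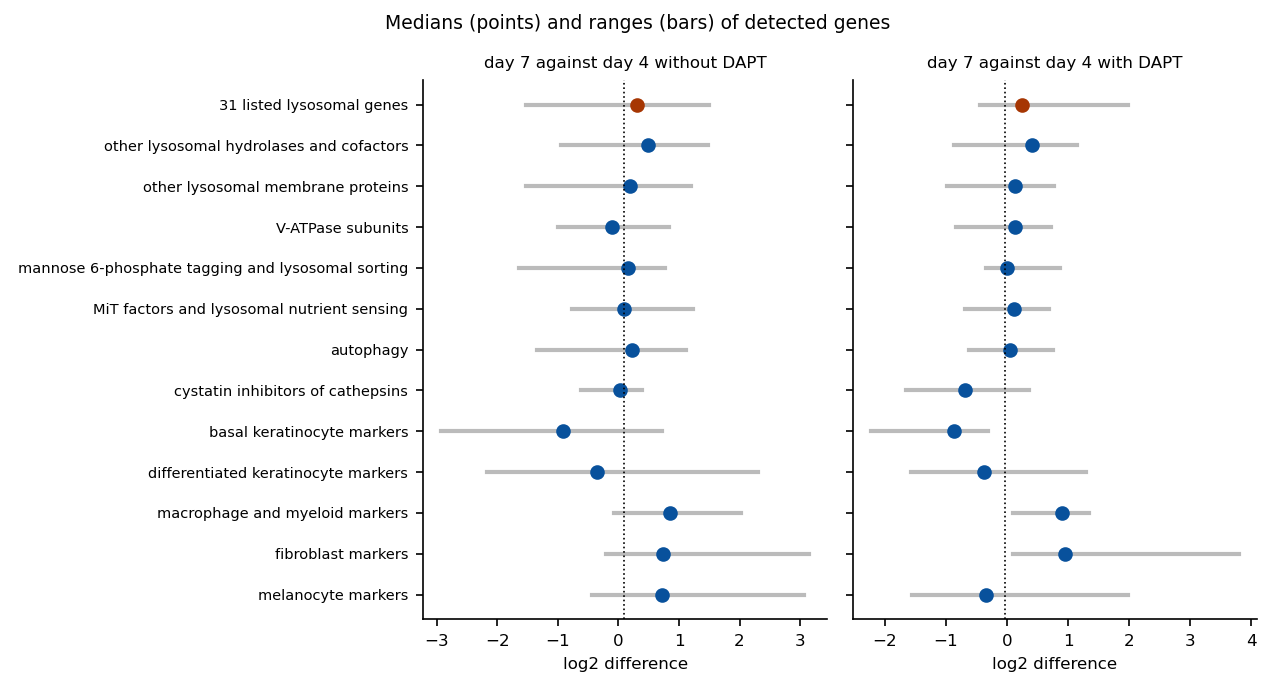
Median (points) and range (bars) of the log2 difference of day 7 minus day 4 for the 31 listed lysosomal genes, 7 lists of related genes and 5 lists of cell type markers, counting detected genes, without DAPT (left) and with DAPT (right). Dotted lines are the medians of all genes, 0.09 and -0.03, and the lysosomal hydrolases, myeloid and fibroblast markers lie to their right while basal keratinocyte markers lie to their left.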

How the data were processed

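Total RNA of transduced keratinocytes was measured on 4 Illumina bead arrays, and groups came from the sample titles, since the treatment label names DAPT even for untreated samples. The authors deposited non-normalized probe intensities with a detection p-value beside each, per the file headers, and a table of normalized intensities whose method the sources used here do not give. The submitters' processing notes name BeadStudio. The deposited intensities had been background-subtracted, as inferred from the values: between 5177 and 5847 of 25697 probes per array lay below 0. From them, neqc of limma 3.58.1 in R 4.3.3 estimated background from the detection p-values, and applied an offset of 16, quantile normalization over the 4 arrays and log2. The platform annotation named 23978 probes, and 1719 are unnamed here.

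A gene entered a comparison if its probe had a detection p under 0.01 on at least 1 of the 2 arrays. Where the dimmer array did not detect it, the fold is a lower bound within the normalization used, "at least N-fold". It was computed against that array's lowest detected signal, or the probe's own signal where that is higher. An alternative setting can give a smaller fold. The only test is an additive limma model of DAPT and day, with a threshold of 0.05 on the adjusted p. Its residual is the difference of the DAPT effects between the days, from which an SD shared by all genes is taken. The p-values are set against that spread and not against a spread between replicates. This model and the counting steps were tested on simulated data. Alternatives were median scaling, no background correction, an offset of 50, detection on every array, no detection filter, the mean over a gene's probes and the authors' table. Genes named from other lists are up to 4 per list with the largest differences, and every member is accounted for. The members and lists were chosen with earlier results of these data known. Promoters came from RefSeq, build GRCm38.p6. Python 3.11.15 with numpy 2.4.6, pandas 2.3.3 and matplotlib 3.10.9 made the counts and figures.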

Additional observations from a re-analysis of the deposited data

Results flagged for a closer look

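With 1 array per group, the differences named here between comparisons were not tested. In each, the same contrast had opposite signs in the 2 settings, and both values exceeded the SD between probes of a gene. Other members also had opposite signs, among them Cd63 and Lgmn between the days, without both values exceeding that SD. Ctsa differed with DAPT by -2.07 on day 4 and by 1.44 on day 7, and between the days by -1.53 without DAPT and 1.98 with DAPT. Lipa was higher with DAPT by 0.80 on day 4, while its difference on day 7 was -0.376, barely past the SD of 0.375. That day 7 value was -0.13 with median scaling and -0.35 with an offset of 50. Lamp1 differed between the days by -0.95 without DAPT and by 0.33 with DAPT, the latter barely past the SD of 0.32.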

How the results depend on the processing

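With no replicate, a single gene's value under another setting was set against the SD between probes of a gene. A median was set against a tolerance of 0.1 on the log2 scale, and a count against a ratio of 1.5. The members' median with DAPT on day 4 was -0.19 with median scaling and -0.22 with probes averaged per gene, and that on day 7 was 0.090 with median scaling. For day 7 against day 4, median scaling gave 0.11 without DAPT and 0.36 with DAPT. Of the members at least 2-fold different with DAPT on day 4, 1 was left with median scaling, with detection on every array or with the mean over probes. With median scaling Ctsa was left and Lamp1 stood at -0.98, and under the others Lamp1 was left. With DAPT on day 7, 0 were left with an offset of 50, detection on every array or the mean over probes. Between the days without DAPT, 1 was left under the same 3 settings, and with DAPT 0 were left with detection on every array or the mean over probes. Detection on every array leaves out Ctsa. Its difference with DAPT on day 7 was 0.88 with an offset of 50 and 0.41 with the mean over probes. On day 4 it was -0.59 with the mean over probes and -2.95 in the authors' table. The cause was not tested otherwise.

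The additive limma test called 0 members under all its alternatives, including models of DAPT alone or day alone on 4 arrays and with each array left out in turn, where a lone array is assumed to vary like the others. Over all genes it called between 0 and 12 for DAPT and between 0 and 263 for day, and 0 for both with median scaling or with no detection filter. Over all genes, 2-fold counts with DAPT on day 4 were 378 higher and 357 lower, 199 and 678 with median scaling, and 725 and 534 in the authors' table. No paired analysis was possible because each group holds 1 array and the labels give no replicate numbers. The precision of Ctsa, Ctss and Tfeb is limited by probes close to background.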
